A study of Bos taurus with 24 samples.

Results

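The lactating mammary gland of dairy cows fed a diet built on corn stover was compared with that of cows fed a diet built on alfalfa hay. Corn stover is the stalk and leaf residue left after the corn grain harvest, and alfalfa hay is a protein-rich legume forage. The 12 mammary libraries of the 24 in the series were chosen by tissue and diet from the labels: 6 from corn stover cows and 6 from alfalfa hay cows. The other 12 libraries are livers, which entered here only where a tissue reference was needed. All cows were Bos taurus, received their diet for 12 weeks and were sampled after slaughter. Age and genotype were not used here; parity was 3 in 10 cows and 2 in 1 cow of each diet. Corn stover cows were at 228 to 254 days in milk and alfalfa hay cows at 231 to 246 days. The labels give each cow its own milk yield and intake, and cows of the 2 diets were different animals. The corn stover cows gave 20.4 ± 2.03 kg of milk daily, against 26.3 ± 2.66 kg in the alfalfa hay cows (SD, n = 6 each; two-sided exact permutation p = 0.00433), while dry matter intake was 18.1 ± 1.22 and 18.3 ± 0.387 kg daily (two-sided exact permutation p = 0.812). Diet and milk yield differed together and cannot be told apart here.

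In the lactating gland, secretory epithelial cells devote most of their messenger RNA to a handful of milk proteins. The caseins carry calcium and phosphate in micelles, beta-lactoglobulin (PAEP) is the main whey protein of cattle, and alpha-lactalbumin (LALBA) turns a galactosyltransferase into lactose synthase. Milk fat is made from fatty acids synthesised in the cell or taken up from blood, and prolactin and growth hormone act on the epithelium through STAT5. Lactoferrin (LTF), an iron-binding protein of milk and of neutrophil granules, belongs to the gland's innate defence, and its level is known to rise in late lactation, involution and mastitis.

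The files held Ensembl bovine gene identifiers without symbols, and no supplied table paired them. The 39 symbols used below were assigned from general knowledge of these identifiers and not from the data; each is printed with its identifier at first mention, and 33 of the 39 genes passed the filter on low counts. Values below are CPM, reads scaled to 1000000 of a library size adjusted by TMM, a factor that corrects for composition, unless a percent of reads is named. The 12 libraries held 22579051 to 37954234 counted reads, with 14110 to 15383 genes detected in each. TMM factors ran from 0.717 in alfalfa hay cow 4 to 1.38 in corn stover cow 1. The libraries of alfalfa hay cows 1 and 2 were the closest of the 66 mammary pairs: their counts differed by 3.67 times sampling noise, against 8.91 for the next pair and a median of 14.99. The labels give these as different cows, so they were kept as 2 samples. Their difference beyond sampling noise cannot tell 1 cow from 2. Values for the pair summed are given for LTF, CXCL8, the covarying genes and the counts of calls. On the first principal component, which held 21.8% of the variance of log2 CPM, corn stover cow 6 stood apart at -72.4, and the diets did not separate (two-sided exact permutation p = 0.729).

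The dominant milk transcripts did not differ detectably between the diets. The tissue label held: CSN1S1 (ENSBTAG00000007695), the alpha-S1-casein gene, took 32.8% of mammary reads, CSN2 (ENSBTAG00000002632), beta-casein, 16.7%, CSN1S2 (ENSBTAG00000005005), alpha-S2-casein, 9.08%, and CSN3 (ENSBTAG00000039787), kappa-casein, 6.39%. PAEP (ENSBTAG00000014678) took 3.45% and LALBA (ENSBTAG00000005859) 2.32%. These 6 genes together held 69.7 ± 4.93% of reads on corn stover and 71.8 ± 3.66% on alfalfa hay (SD, n = 6 each; two-sided exact permutation p = 0.4545). With the 4 next most abundant genes, which are left unnamed, the 10 genes held 73.2 ± 5.15% and 75.1 ± 3.79% (difference -1.92 percentage points, two-sided exact permutation p = 0.532; the smallest p that 924 assignments allow is 0.00216). Corn stover cow 1 carried the lowest share of the 12, 63.1% against 73.5 to 77.3% in the other corn stover cows. Without that library the difference was 0.115 percentage points in the other direction. Because these are bulk tissue samples, fewer cells of a type and less RNA per cell cannot be told apart.

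**Figure D1:**
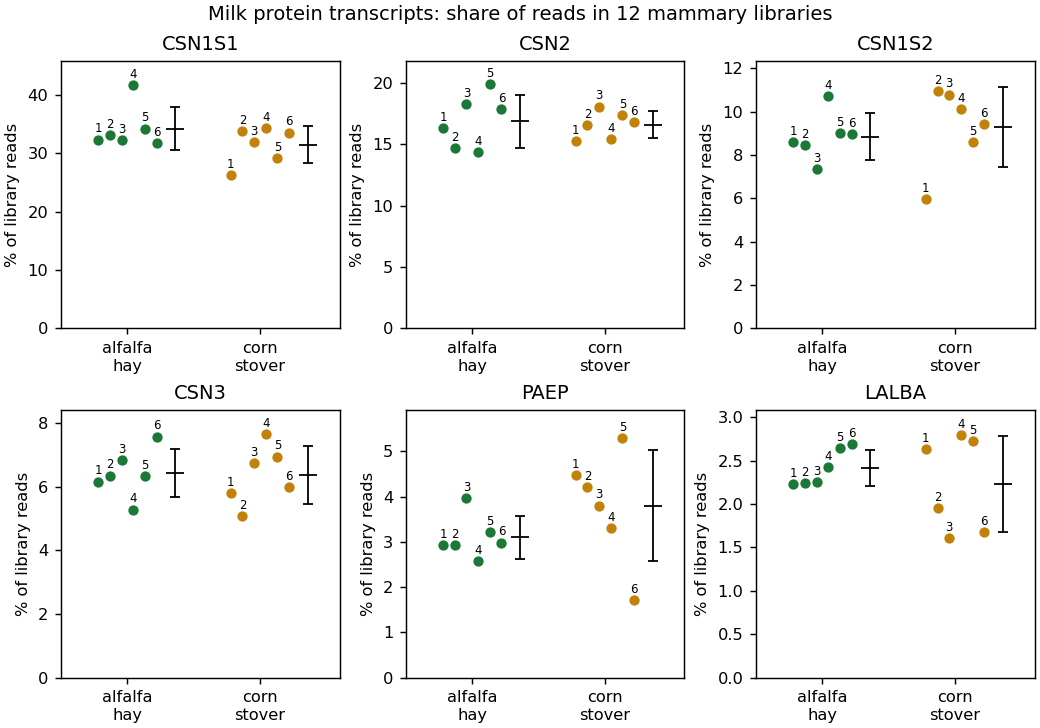
Percent of library reads (y axis) taken by each of 6 milk protein genes in 6 alfalfa hay (green) and 6 corn stover (orange) mammary libraries; numbers are replicates, and the bar at the right of each group is the mean ± SD. The groups overlap in all 6 genes, and corn stover cow 1 has the lowest CSN1S1 and CSN1S2.

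Single milk protein genes showed the same. CSN1S1 took 26.2, 33.8, 31.9, 34.3, 29.2 and 33.5% of reads in corn stover cows 1 to 6 and 32.3, 33.0, 32.3, 41.6, 34.2 and 31.7% in alfalfa hay cows 1 to 6. Its highest value was in alfalfa hay cow 4 and its lowest in corn stover cow 1, corn stover cow 5 also lay under the alfalfa hay range, and the other values interleaved. The fitted log2 differences, corn stover minus alfalfa hay, were -0.19 ± 0.29 for CSN1S1, -0.08 ± 0.25 for CSN2, 0.02 ± 0.30 for CSN1S2 and -0.04 ± 0.24 for CSN3 (± SE). PAEP had a difference of 0.23 ± 0.27 and LALBA of -0.18 ± 0.26, with edgeR adjusted p-values from 0.939 to 0.996 over the 6 genes. PAEP was above all alfalfa hay values in 3 corn stover cows and at its lowest, 1.70% of reads, in corn stover cow 6.

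**Figure D2:**
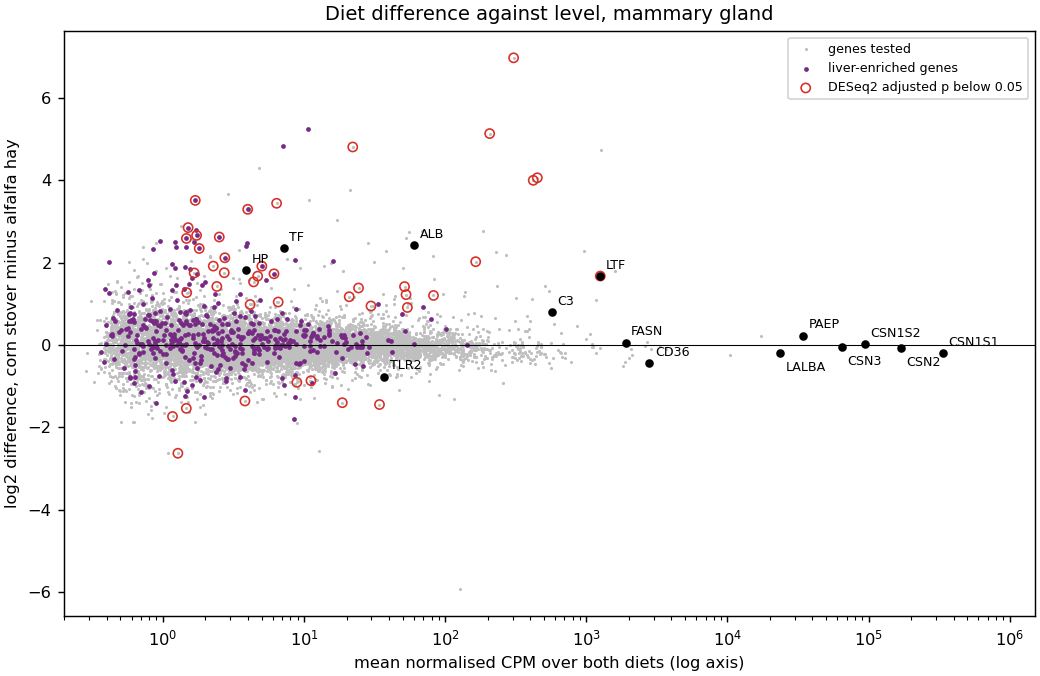
Log2 difference between the diets (y axis, corn stover minus alfalfa hay) against mean normalised CPM (x axis, log scale) for 12027 genes; purple marks genes at least 8 times higher in liver, red rings the 42 genes with a DESeq2 adjusted p below 0.05, black named genes. The 6 milk protein genes at the right lie near 0, and most ringed genes lie above 0.

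Across the 12027 genes tested, edgeR's quasi-likelihood test with Benjamini-Hochberg adjustment called 0 genes between the diets at an adjusted p below 0.05 (0.0%), and the smallest adjusted p was 0.165. Before adjustment 784 genes had p below 0.05 (6.52%), of which 437 were fitted higher on corn stover (3.63%) and 347 lower (2.89%). DESeq2 called 42 genes (0.349%), 34 higher (0.283%) and 8 lower (0.0665%), and limma voom called 0. Of all tested genes, 6032 (50.2%) were fitted higher on corn stover. The 2 diets did not overlap in 41 genes (0.341%): corn stover lay above in 23 (0.191%) and below in 18 (0.150%). The fitted difference exceeded 2-fold in 356 genes (2.96%), and the median absolute log2 difference of 0.19 was smaller than the median SE of 0.26. Among the 31 genes with a mean of at least 1000 CPM, which took 77.9% of all reads, 4 had an unadjusted p below 0.05 and all 4 were higher on corn stover. Genes can reach this mean through the diet or library where they are high, so the direction of the 4 supports nothing. Among them, ENSBTAG00000025441 was 10920 CPM in corn stover cow 1 and 6.49 CPM in corn stover cow 6.

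LTF (ENSBTAG00000001292) was the named gene with the clearest separation. It reached 1609, 2133, 2159, 1966, 1188 and 2420 CPM in corn stover cows 1 to 6 and 312, 358, 962, 650, 429 and 879 CPM in alfalfa hay cows 1 to 6. Every corn stover value lay above every alfalfa hay value. The means were 1912 ± 444 and 598 ± 276 CPM (SD, n = 6 each), a log2 difference of 1.68 ± 0.30 (SE) with an edgeR adjusted p of 0.165 and a DESeq2 adjusted p of 3.9e-05. LTF's adjusted p ran from 3.9e-05 to 0.511 over the alternative settings other than DESeq2 with libraries left out or summed. In DESeq2 fits with 1 library left out it ran from 2.3e-07 to 0.00096. Summing alfalfa hay cows 1 and 2 gave a log2 difference of 1.56, and leaving out corn stover cows 2, 3 and 4 gave 1.54 (DESeq2 adjusted p = 0.0301). In liver LTF averaged 8.40 ± 1.78 CPM with corn stover, against 6.54 ± 6.01 CPM with alfalfa hay per library total, and the difference of the diet effects between tissues had an edgeR adjusted p of 0.974.

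**Figure D3:**
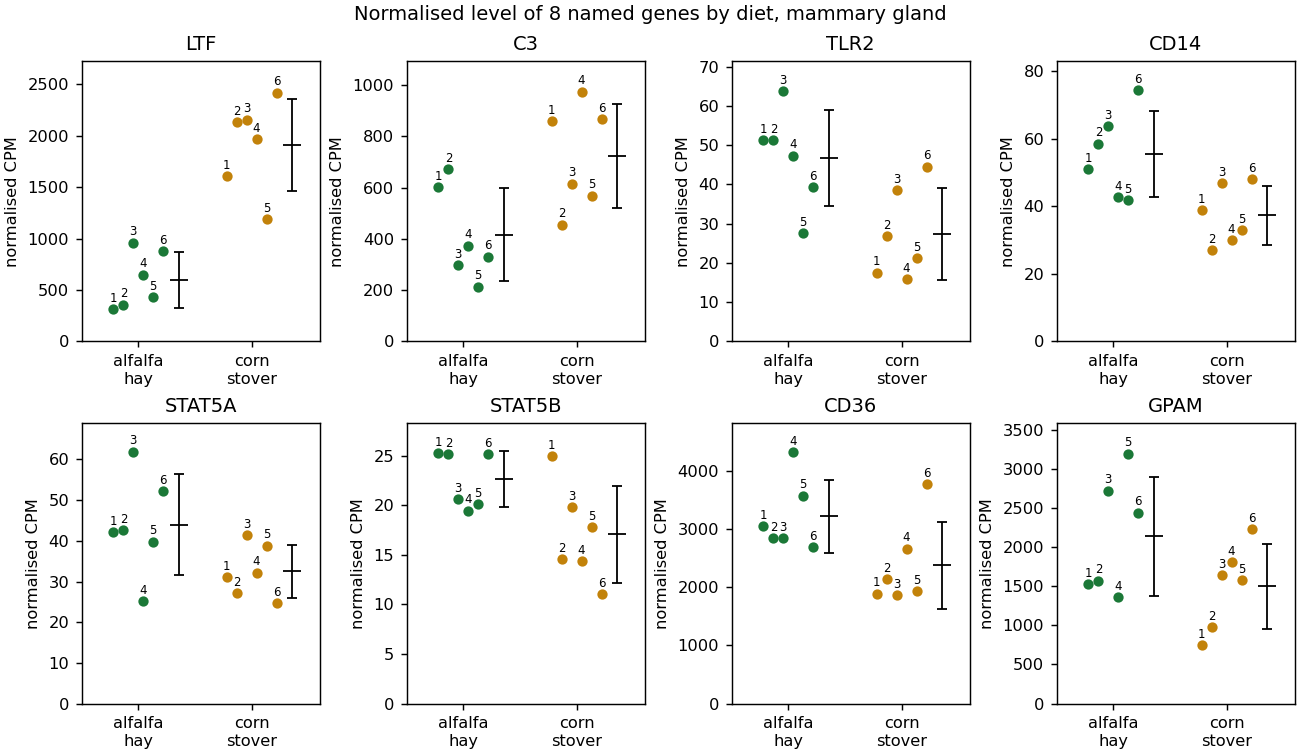
Normalised CPM (y axis) of 8 named genes in 6 alfalfa hay (green) and 6 corn stover (orange) mammary libraries; numbers are replicates and bars the mean ± SD. LTF separates the diets fully, while the other 7 genes overlap.

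Complement and acute phase genes were fitted higher on corn stover, and 0 of 2 passed the edgeR test. C3 (ENSBTAG00000017280), the central complement component, was 859, 456, 616, 975, 569 and 867 CPM with corn stover, against 603, 672, 299, 374, 214 and 331 CPM with alfalfa hay. The highest alfalfa hay value, in cow 2, exceeded 3 of the corn stover values. The means were 724 ± 205 and 416 ± 181 CPM, a log2 difference of 0.80 ± 0.28 (edgeR adjusted p = 0.604). HP (ENSBTAG00000006354), haptoglobin, an acute phase protein that binds free haemoglobin and is made mainly in liver, averaged 6.07 ± 2.86 against 1.71 ± 1.97 CPM (log2 difference 1.82 ± 0.61, edgeR adjusted p = 0.573). Its log2 difference was 1.22 without corn stover cows 2, 3 and 4, which carried the most liver-type reads, described below, and 0.087 with liver-type reads as a covariate (edgeR adjusted p = 0.986). That covariate is the summed level of liver-type genes in the same libraries. It takes up the difference of any gene that follows them, and HP is itself among the genes summed. The value of 0.087 is therefore partly built in. Corn stover cows 2, 3 and 4 also held the highest HP values, and leaving them out lowers the difference in any case. For C3 the log2 difference was 0.88 without those cows and 1.11 with the covariate (edgeR adjusted p = 0.999 and 0.602).

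Among the innate immune sensors, TLR2 and CD14 were fitted lower on corn stover and TLR4 higher, and none of the 3 passed the edgeR test. TLR2 (ENSBTAG00000008008), a receptor for bacterial lipoproteins, was 17.5, 26.8, 38.6, 15.8, 21.3 and 44.5 CPM with corn stover, against 51.2, 51.2, 63.7, 47.3, 27.5 and 39.4 CPM with alfalfa hay. Its log2 difference was -0.77 ± 0.26 (edgeR adjusted p = 0.579); 4 corn stover cows were under the alfalfa hay range. CD14 (ENSBTAG00000015032), a co-receptor for lipopolysaccharide on monocytes and macrophages, averaged 37.3 ± 8.80 against 55.4 ± 12.7 CPM, a log2 difference of -0.57 ± 0.19 (edgeR adjusted p = 0.574). TLR4 (ENSBTAG00000006240), the lipopolysaccharide receptor, was 13.3 ± 4.65 and 11.4 ± 3.27 CPM. Of the 8 genes listed as sensors and cytokines, 4 were tested; 0 passed, and 2 had an unadjusted p below 0.05, both lower, where 6.52% of all genes tested had such a p and 2.89% were lower. The cytokines TNF (ENSBTAG00000025471), IL1B (ENSBTAG00000001321), IL6 (ENSBTAG00000014921) and IL10 (ENSBTAG00000006685) were under the filter. IL6 was highest in alfalfa hay cows 1 and 2, at 2.78 and 2.72 CPM, and CXCL8 (ENSBTAG00000019716), a neutrophil attractant, was highest in the same cows at 3.03 and 3.41 CPM. The log2 difference of CXCL8 was -0.67 ± 0.78 with those cows apart and -0.18 with them summed.

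Genes of milk fat synthesis and uptake showed no detectable difference. Of 10 members tested, 4 were fitted higher and 6 lower, 0 had an unadjusted p below 0.05, and the median log2 difference was -0.21 against 0.00 over all genes tested. CD36 (ENSBTAG00000017866), a fatty acid transporter, was 1890, 2132, 1856, 2660, 1938 and 3771 CPM with corn stover, against 3043, 2844, 2836, 4326, 3573 and 2683 CPM with alfalfa hay. It was under the whole alfalfa hay range in 5 of 6 corn stover cows, with cow 6 as the exception (log2 difference -0.44 ± 0.22, edgeR adjusted p = 0.812). GPAM (ENSBTAG00000011917), which starts glycerolipid assembly, averaged 1499 ± 547 against 2139 ± 756 CPM (log2 difference -0.51 ± 0.29). FASN (ENSBTAG00000015980), fatty acid synthase, averaged 1942 ± 877 against 1863 ± 485 CPM, with single cows from 879 to 3023 CPM. ACACA (ENSBTAG00000017567), the acetyl-CoA carboxylase that feeds it, averaged 226 ± 23.8 against 263 ± 65.1 CPM. SCD (ENSBTAG00000045728), which introduces a double bond into fatty acids, averaged 1158 ± 192 against 956 ± 203 CPM (log2 difference 0.28 ± 0.19). LPL (ENSBTAG00000012855), lipoprotein lipase, FABP3 (ENSBTAG00000016819), an intracellular fatty acid carrier, and SREBF1 (ENSBTAG00000007884), a lipogenic transcription factor, had log2 differences of -0.20, -0.24 and -0.49. DGAT1 (ENSBTAG00000026356), the last enzyme of triglyceride synthesis, and ABCG2 (ENSBTAG00000017704), a membrane transporter active in milk secretion, had 0.20 and 0.19.

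Of 4 genes of growth hormone and prolactin signalling, 3 were tested and 0 passed. STAT5A (ENSBTAG00000009496), the main mediator of prolactin in the epithelium, was 32.6 ± 6.53 against 44.0 ± 12.4 CPM (log2 difference -0.43 ± 0.20, edgeR adjusted p = 0.762). STAT5B (ENSBTAG00000010125), its close relative, was 17.1 ± 4.89 against 22.6 ± 2.84 CPM (log2 difference -0.41 ± 0.19, edgeR adjusted p = 0.759). How the counting treated reads that match both relatives was not examined. GHR (ENSBTAG00000001335), the growth hormone receptor, was 15.8 ± 2.97 against 13.6 ± 2.24 CPM, and IGF1 (ENSBTAG00000011082), the growth factor that growth hormone induces in liver, stood under the filter at 0.464 ± 0.265 and 0.391 ± 0.0936 CPM. As reference points, ACTB (ENSBTAG00000026199), cytoskeletal actin, and GAPDH (ENSBTAG00000014731), a glycolytic enzyme, had log2 differences of -0.18 ± 0.24 and 0.30 ± 0.16. The adipocyte marker FABP4 (ENSBTAG00000037526) averaged 155 ± 75.3 against 168 ± 74.3 CPM, and the other adipocyte marker, LEP (ENSBTAG00000014911), leptin, stayed under the filter.

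Among genes left unnamed, the smallest edgeR p-values belonged to genes whose diets did not overlap. ENSBTAG00000037558 was 3.63, 6.23, 3.30, 4.89, 4.86 and 2.33 CPM with corn stover, against 0.974, 1.16, 1.503, 1.77, 0.662 and 1.35 CPM with alfalfa hay (log2 difference 1.76 ± 0.30). ENSBTAG00000037778 averaged 115 ± 41.1 against 49.98 ± 9.34 CPM (log2 difference 1.21 ± 0.23). In the other direction, ENSBTAG00000009468 averaged 18.4 ± 3.496 against 50.1 ± 26.2 CPM (log2 difference -1.45 ± 0.28), and ENSBTAG00000005745 averaged 10.3 ± 3.61 against 27.1 ± 11.1 CPM (log2 difference -1.40 ± 0.30). All 4 were DESeq2 calls, and their edgeR adjusted p-values were 0.165, 0.165, 0.183 and 0.270.

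Low-level reads of genes typical of liver were higher on corn stover, and 3 cows carried most of them. Liver-type genes are 60 genes whose median reached 1000 CPM in the livers and was 1000 or more times that in mammary gland; their summed level is given in ppm, parts in 1000000 of the liver level. It was 204, 1099, 1976, 1089, 374 and 416 ppm in corn stover cows 1 to 6 and 70.8, 149, 173, 400, 143 and 122 ppm in alfalfa hay cows 1 to 6. Corn stover cows 2, 3 and 4 were the 3 highest of the 12, and alfalfa hay cow 4 lay among the remaining corn stover values. The log2 difference was 2.09 (two-sided exact permutation p = 0.00649). This comparison was chosen with the high values of corn stover cows 2, 3 and 4 already known. Its p-values here therefore describe the pattern and are not independent support. Without corn stover cows 2, 3 and 4 the log2 difference was 1.05 (two-sided exact permutation p = 0.0833, where the smallest possible is 0.0119). Leaving out the highest libraries lowers the difference in any case. Its size depended on the genes summed: it was 0.70 with genes only 100 or more times above mammary gland (two-sided exact permutation p = 0.00433) and 1.27 with the 4 named plasma protein genes below (two-sided exact permutation p = 0.0498).

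**Figure D4:**
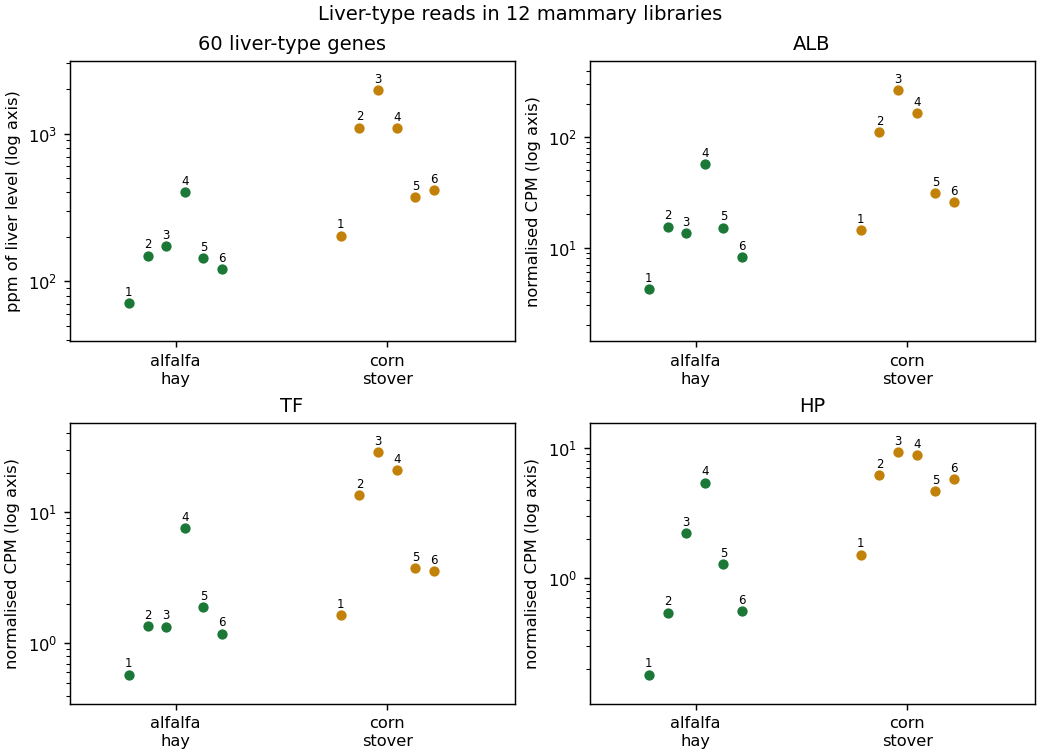
Summed level of 60 liver-type genes in ppm of the liver level, and normalised CPM of ALB, TF and HP (y axes, log scale), in 6 alfalfa hay (green) and 6 corn stover (orange) mammary libraries; numbers are replicates. Corn stover cows 2, 3 and 4 have the highest values of all 4 panels, and alfalfa hay cow 4 is the highest of its diet. ALB, TF and HP are among the 60 genes summed.

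Most of the named plasma protein genes followed those libraries. ALB (ENSBTAG00000017121), serum albumin, was 14.4, 110, 267, 164, 31.3 and 25.9 CPM with corn stover, against 4.22, 15.5, 13.5, 56.6, 15.2 and 8.23 CPM with alfalfa hay. Its log2 difference was 2.44 ± 0.70 (edgeR adjusted p = 0.424) with all 12 libraries and 0.34 without corn stover cows 2, 3 and 4. TF (ENSBTAG00000007273), transferrin, and AHSG (ENSBTAG00000000522), fetuin-A, gave 2.36 and 1.57 with all libraries and 0.35 and 0.04 without those cows. For ALB and TF those cows held the highest values, and leaving them out lowers the difference in any case. ALB, TF and AHSG are among the liver-type genes summed above, so their following of that sum is partly built in. SERPINA1 (ENSBTAG00000018843), alpha-1-antitrypsin, is not among the summed genes and did not follow. It averaged 12.7 ± 5.87 against 20.2 ± 8.67 CPM (log2 difference -0.67 ± 0.32, edgeR adjusted p = 0.762). In liver ALB averaged 113279 ± 33646 and 116238 ± 36180 CPM per library total, so that the mammary level was a small part of the liver level.

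The called genes included liver-type genes. Of the 60 liver-type genes 39 passed the filter on low counts. Some could pass through the corn stover libraries alone, so the direction of the 39 supports nothing; all 60 had a read in every corn stover library, and 49 to 60 of them in the alfalfa hay libraries. Genes at least 8 times higher in liver, at an edgeR adjusted p below 0.05 between the tissues, made up 10 of the 42 DESeq2 calls, all 10 higher on corn stover. This was 2.21% of the 453 such genes that passed the filter, of 1205, against 0.349% of all genes. Some of the 453 could also pass through the corn stover libraries alone, so the higher share supports nothing either. In 8 of the 10 calls the 3 highest libraries were corn stover cows 2, 3 and 4. Without those cows the log2 differences of the 8 went from between 1.74 and 3.54 to between 0.39 and 1.24. Leaving out the 3 highest libraries of a gene lowers its difference in any case, so this fall supports nothing. In the other 2 the differences were 3.31 and 2.70 with all cows and 3.48 and 2.05 without them. DESeq2 called 0 of the 10 with those cows left out, a fit with fewer libraries. Genes at least 8 times higher in mammary gland made up another 10, or 1.12% of 891 tested, of which 8 were still called. The DESeq2 count without those cows was 38, of which 18 were among the 42. LTF was called in both fits. What brought liver-type reads into these libraries was not tested.

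A further group of calls was carried by a different set of corn stover cows. ENSBTAG00000039035, singled out after its values were seen as the DESeq2 call with the largest fitted difference, was 3158, 59.9, 0.334, 16.9, 400 and 0.557 CPM in corn stover cows 1 to 6 and 23.2, 2.29, 0.325, 0.515, 0.898 and 1.34 CPM in alfalfa hay cows 1 to 6. Corn stover cows 1 and 5 were far above the rest, and cows 3 and 6 were no higher than alfalfa hay cows. The 10 other genes with a Pearson correlation above 0.93 with it on log2 CPM over the 12 libraries shared the pattern; they were chosen for it, so this is a description. The 11 genes summed to 23617, 3213, 185, 1065, 7402 and 177 CPM with corn stover, against 691, 740, 178, 217, 251 and 233 CPM with alfalfa hay. Corn stover cow 1 was the highest library in all 11 genes, cows 3 and 6 exceeded the alfalfa hay maximum in 0 of them, and alfalfa hay cows 1 and 2 led their diet in 10. DESeq2 called 5 of the 11, or 3 with alfalfa hay cows 1 and 2 summed, against 0.349% of all genes, and edgeR called 0. The first gene was chosen as a DESeq2 call and the others for following it. A high share of calls is therefore built in and supports nothing.

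**Figure D5:**
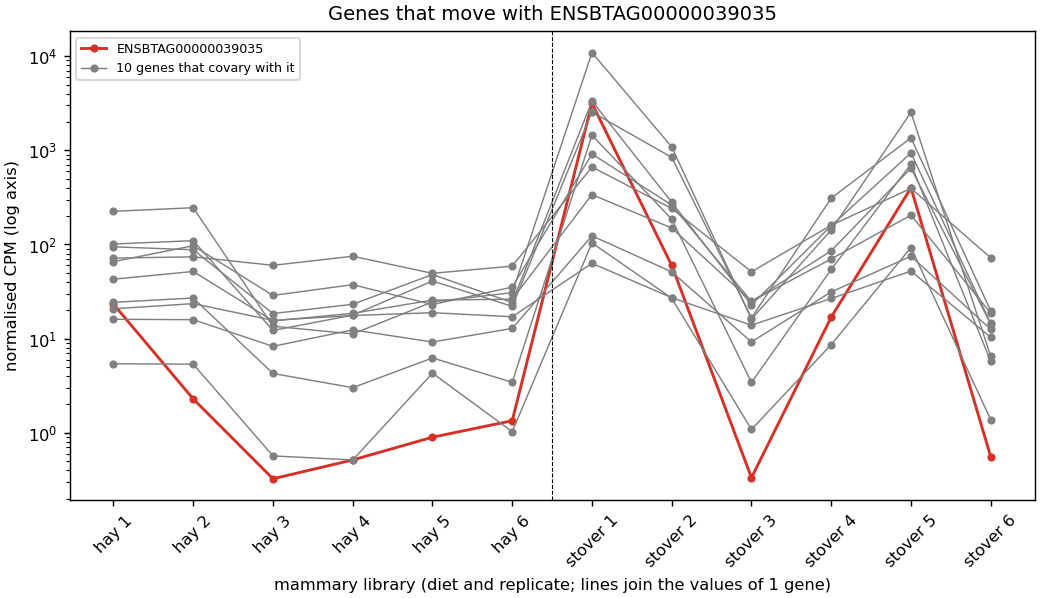
Normalised CPM (y axis, log scale) of ENSBTAG00000039035 (red) and the 10 genes that covary with it (grey) in each of the 12 mammary libraries (x axis); lines join the values of 1 gene and libraries have no order. Corn stover cows 1, 2, 4 and 5 lie above the alfalfa hay cows in the red gene apart from alfalfa hay cow 1, and corn stover cows 3 and 6 do not.

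The diet difference in mammary gland was also set against that in liver of the same 12 cows. Over 13760 genes the edgeR test of the difference between the 2 diet effects called 0 (0.0%), and 700 had an unadjusted p below 0.05 (5.09%), of which 435 were more positive in mammary gland (3.16%). This fit used group means and did not pair the 2 tissues of a cow. With cow as a block the edgeR count was also 0. The 6 milk protein genes had differences between 3.91 and 5.11 on the log2 scale with unadjusted edgeR p-values from 0.000256 to 0.00795 and adjusted p-values from 0.305 to 0.714. Their log2 diet differences were between -5.15 and -3.71 in liver and between -0.19 and 0.23 in mammary gland. Nearly all of each difference between tissues therefore lay in the low liver values, and not in mammary gland. In liver CSN1S1 averaged 2.42 ± 3.92 CPM with corn stover, against 62.0 ± 36.9 CPM with alfalfa hay per library total, against 316195 ± 76741 and 360127 ± 116025 TMM-scaled CPM in mammary gland. SCD had a log2 diet difference of 1.85 ± 0.52 in liver and 0.28 ± 0.19 in mammary gland (edgeR interaction adjusted p = 0.788).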

How the data were processed

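Total RNA from frozen mammary tissue was sequenced. The authors deposited raw read counts by Ensembl gene; per the submitters' processing notes the tools were TopHat2 2.0.9, SAMtools 1.1 and HTSeq 0.6.1 with build UMD 3.1, and the strand setting is not given in the sources used here, so reads of overlapping antisense genes cannot be told apart. Rows without a gene, which were blank, were left out. Counts of the 12 mammary libraries (22579051 to 37954234 reads) were filtered with edgeR's filterByExpr (12027 of 24616 genes kept), scaled by TMM and tested with edgeR 4.0.16's quasi-likelihood test, Benjamini-Hochberg adjusted, threshold 0.05, in R 4.3.3. DESeq2 1.42.0 and limma 3.58.1 (voom) were alternatives, and all 3 were tested on simulated counts. Single values were compared by two-sided exact permutation of the diets.

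Gene symbols were recalled for 41 identifiers; 0 of the 24616 identifiers matched the supplied gene table, so names rest on general knowledge. The 2 symbols PPARG and APOA1 were dropped because their levels across tissues went against the name, which for PPARG goes beyond the rule set for names. All other recalled genes were named, with the 2 other identifiers of smallest p in each direction. Genes, lists and comparisons were chosen with earlier results of these data known.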

Additional observations from a re-analysis of the deposited data

Results flagged for a closer look

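In groups of 6 libraries, a value was listed when its gap to the nearest other library took more than 0.625 of the group's range. Of 86 groups checked 12 met this, where about 4.3 would by chance if the groups were independent and normally distributed. The groups are not independent, since ALB, TF and AHSG are part of the liver-type sum, and normality was not checked. An excess over chance therefore cannot be read from these counts.

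Corn stover cow 1 stood apart in 4 of them. Its CSN2 level was 110217 CPM against 166450 to 187507 in the other corn stover cows, the 10 most abundant genes took 63.1% of its reads, its TMM factor was 1.38, and ENSBTAG00000039035 reached 3158 CPM.

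Alfalfa hay cow 4 stood apart in 6. It had 37954234 counted reads, ACACA at 143 CPM, and liver-type reads at 400.05 ppm of the liver level. ALB was 56.6 CPM, TF 7.58 CPM and AHSG 1.51 CPM in the same library. Alfalfa hay cow 1 had 23.2 CPM of ENSBTAG00000039035, and corn stover cow 2 had SCD at 776 CPM against 1174 to 1284 in the other corn stover cows. Causes were not tested.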

How the results depend on the processing

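The edgeR count of 0 held in the other scalings, filters and left-out libraries run, and changed with liver-type reads as a covariate (15 genes, all higher, 0 of them at least 8 times higher in liver and 6 among the 11 that covary with ENSBTAG00000039035) and with the replicate block (12 genes, all higher, 9 of them liver-enriched, with edgeR adjusted p-values of 0.0112 for LTF, 0.0231 for ENSBTAG00000037778, 0.0329 for HP and 0.0385 for ALB). DESeq2 called 42. Same-numbered cows of the 2 diets correlated between -0.24 and 0.28, 4 of 6 above 0.1, and 3 of 6 best with their own number, so the numbers were not taken to pair cows. Without a filter 1379 genes had an unadjusted p below 0.05, against 784. DESeq2 counts ran from 26 (without alfalfa hay cow 3) to 84 (without alfalfa hay cow 4), with 66 without corn stover cow 3 and 80 without corn stover cow 6. Summing alfalfa hay cows 1 and 2 gave 30 DESeq2 calls, 25 of them among the 42; this and the totals without TMM were added after seeing the data. The share of the 10 most abundant genes differed by -2.81 to 0.115 percentage points over left-out libraries. The liver-type difference was 1.77 to 2.42 over left-out libraries and 1.05 without corn stover cows 2, 3 and 4; it was 0.70 with a ratio of 100 to mammary gland and 1.27 with 4 named liver markers, planned as 5 before 1 name was dropped. The cause of these shifts was not tested.

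Of 1017 values for 38 genes, 965 kept direction and side of the threshold, 11 moved past it and 41 reversed, in 15 genes. Over left-out libraries the log2 difference ran from -0.28 to 0.0012 for CSN1S1, -0.15 to 0.017 for CSN2, -0.074 to 0.20 for CSN1S2, -0.18 to 0.059 for CSN3, -0.11 to 0.21 for FASN, -0.37 to 0.12 for FABP4 and -0.28 to 0.063 for ACTB. With days in milk as a covariate it was -0.032 for CSN1S2, -0.096 for PAEP, -0.18 for FASN, -0.088 for DGAT1 and 0.090 for FABP4. With liver-type reads as a covariate it was -0.76 for CSN1S2, -0.019 for PAEP, 0.089 for ACACA, 0.076 for SREBF1, -0.71 for ALB, -0.69 for TF and -0.75 for AHSG. ALB, TF and AHSG are themselves among the genes summed in that covariate, so their shifts are partly built in. The replicate block gave log2 differences of -0.0027 for CSN1S2, -0.028 for FASN and 0.18 for CXCL8. Without corn stover cows 2, 3 and 4 the log2 difference was -0.34 for CSN1S2, 0.12 for FABP4 and 0.031 for ACTB. Summing alfalfa hay cows 1 and 2 gave -0.027 for CSN1S2, limma voom -0.034 for FASN and 0.21 for CXCL8, parity 3 cows 0.017 for CSN3 and 0.11 for CXCL8, and totals without TMM 0.027 for FABP4.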
